A study of Rattus norvegicus with 12 samples.

Results

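The thrombospondins are a family of secreted matrix proteins, and the 5 members measured here were Thbs1, Thbs2, Thbs3, Thbs4 and Comp (cartilage oligomeric matrix protein). They were picked by name out of 30560 genes, and the family was picked because Comp rose so steeply in infarcted hearts, so the values of its members in MI against Sham are given below as a description from which nothing is inferred. All 5 had at least 10 counts in total, the minimum for testing, as did 18182 genes overall. RNA was sequenced from formalin-fixed, paraffin-embedded sections of the middle left ventricle of 12 male Wistar rats, operated on at an age of 7 weeks. Sham rats (n = 4) had the chest opened but no ligature, MI rats (n = 4) had the left anterior descending coronary artery tied off permanently, and both received carboxymethylcellulose vehicle by gavage. MI + UA rats (n = 4) had the same ligation and were gavaged daily with urolithin A (UA), a mitophagy-inducing metabolite made by gut bacteria. The study's methods also mention an MI + UA sample left out because it stood apart in a principal component analysis, that is, the study reduced this group by an expression profile. Treatment lasted 8 weeks, and the study's sources differ on the dose and on when treatment began. A section holds scar and surviving muscle in unknown shares, and in such bulk RNA fewer cells of a type cannot be told apart from less RNA per cell.

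Thrombospondins are matricellular proteins: they sit in the matrix but mostly regulate how cells, collagen, proteases and growth factors meet. Thbs1 and Thbs2 form the trimeric subgroup, whose type 1 repeats bind CD36 and restrain angiogenesis, and Thbs1 also activates latent TGF-beta. Thbs3, Thbs4 and Comp form the pentameric subgroup, which lacks those repeats. Comp binds fibrillar collagens and is abundant in cartilage and tendon, and Thbs4, found in tendon and injured heart, has a role in the Atf6 arm of the endoplasmic reticulum stress response.

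The 250 bases just upstream of the transcription start are shown for Comp and Thbs4, the members with the largest differences between infarcted and Sham hearts, and for Thbs1, the trimeric member with the larger difference. They are RefSeq sequences of the GRCr8 build, which is not the mRatBN7.2 build used for the counts. They lie at chr16:19089549-19089798 on the minus strand for Comp, chr2:25760346-25760595 on the minus strand for Thbs4 and chr3:125510000-125510249 on the plus strand for Thbs1. RefSeq promoters were matched for 4 of the 5 members, Thbs2 having no entry. Capitals mark, on either strand, CAGAC (a core that Smad proteins read), GGAATG (a TEAD motif) and ATAAA (part of a TATA-like element).
Comp: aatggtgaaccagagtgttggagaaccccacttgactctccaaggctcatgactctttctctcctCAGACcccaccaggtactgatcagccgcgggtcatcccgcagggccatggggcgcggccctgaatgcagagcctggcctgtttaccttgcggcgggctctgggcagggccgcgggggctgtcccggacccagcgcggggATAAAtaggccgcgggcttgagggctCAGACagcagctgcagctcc
Thbs4: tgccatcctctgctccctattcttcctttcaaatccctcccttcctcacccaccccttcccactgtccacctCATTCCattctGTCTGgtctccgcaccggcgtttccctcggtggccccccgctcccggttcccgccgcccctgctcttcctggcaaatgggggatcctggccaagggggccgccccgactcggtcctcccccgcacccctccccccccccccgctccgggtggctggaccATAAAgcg
Thbs1: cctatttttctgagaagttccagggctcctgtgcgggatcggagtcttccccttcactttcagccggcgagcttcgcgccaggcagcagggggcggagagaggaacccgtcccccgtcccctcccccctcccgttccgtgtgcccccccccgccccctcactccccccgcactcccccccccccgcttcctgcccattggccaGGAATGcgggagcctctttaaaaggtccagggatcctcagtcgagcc

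The Comp promoter held CAGAC at 2 places and that of Thbs4 at 1 place, while 42.9% of 33469 rat promoters of this length held it at least once. ATAAA was found in Comp and Thbs4 and in 39.3% of all promoters. GGAATG was found in Thbs1 and Thbs4 and in 12.1% of all promoters. The AP-1 motif TGANTCA (6.34% of promoters) and the Runx motif TGTGGT (14.5%) were in none of the 4 windows. GGGCGG, the Sp1 motif, was present in Thbs1, Thbs3 and Thbs4 (30.5% of promoters), CCAAT in Thbs1 and Thbs3 (34.0%), and the E-box CANNTG in Comp and Thbs4 (65.5%). The 4 windows had GC contents of 61.6% to 67.6%, above the median of 51.2% over all promoters.

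Reads on genes numbered 6228706 to 19031695 per library, with a library from each rat. The deepest were MI + UA rats 66 and 29 and the shallowest was Sham rat 32. Cardiomyocyte genes were abundant in every group: 11 marker genes summed to between 52871 and 59574 CPM (reads scaled by TMM to a common library size) in Sham, 37131 to 43595 in MI and 39050 to 51020 in MI + UA. MI rat 36 stood apart by cartilage genes, described with Comp below. Rat 66 carries an MI + UA label but appears with vehicle-treated MI rats in the study's echocardiography list, so it was counted as MI + UA, and the members' fold changes between MI + UA and MI are also given without it.

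Comp was nearly absent from Sham hearts and present in every infarcted heart. The Sham libraries held 1, 1, 1 and 2 Comp reads (rats 12, 17, 32 and 38), or 0.125, 0.144, 0.168 and 0.238 CPM. The MI libraries held 155, 27, 42 and 88 reads (rats 36, 57, 61 and 89), or 11.3, 4.23, 4.36 and 7.17 CPM. The MI + UA libraries held 113, 31, 53 and 59 reads (rats 29, 58, 64 and 66), or 6.46, 3.98, 7.17 and 3.32 CPM. The lowest infarcted rat therefore stood far above the highest Sham rat, MI and MI + UA overlapped, and rat 36 was the highest of all. On summed counts, MI was 43.5 times Sham (95% exact interval 18.4 to 135) and MI + UA was 29.7 times Sham (12.6 to 92.1). These intervals cover counting error only, and they are wide because all Sham rats together gave 5 reads.

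Thbs4, the other pentameric member with a large difference, was also low in Sham. It was at 0.878, 1.15, 2.86 and 0.715 CPM in the Sham rats, in the same rat order. In MI it was at 13.6, 17.2, 24.2 and 20.8 CPM, and in MI + UA at 14.5, 22.3, 31.8 and 21.5 CPM. Every infarcted rat was above every Sham rat, the highest Sham value being that of rat 32, and the MI and MI + UA ranges overlapped. Thbs3, whose best known place is the developing skeleton, was expressed at a low level throughout. Its Sham values were 2.38, 2.16, 3.54 and 1.43 CPM, its MI values 4.39, 5.65, 6.12 and 4.89 CPM and its MI + UA values 4.91, 3.72, 3.11 and 3.83 CPM. MI did not overlap Sham, while MI + UA rat 64 lay below Sham rat 32.

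Thbs1, the platelet and injury-induced member, was readily detected in all hearts. It was at 16.8, 15.3, 25.3 and 23.6 CPM in Sham, at 67.8, 74.0, 126 and 65.3 CPM in MI, and at 43.8, 76.2, 62.7 and 38.9 CPM in MI + UA. All infarcted rats were above all Sham rats, and 3 of the 4 MI + UA rats were below every MI rat. Thbs2, made by fibroblasts and needed for orderly collagen fibrils, differed least. It was at 37.1, 42.1, 44.3 and 36.1 CPM in Sham, at 37.3, 42.3, 53.8 and 65.3 CPM in MI, and at 52.0, 52.7, 60.5 and 45.4 CPM in MI + UA. MI overlapped Sham, whereas every MI + UA rat lay above the highest Sham rat.

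**Figure D1:**
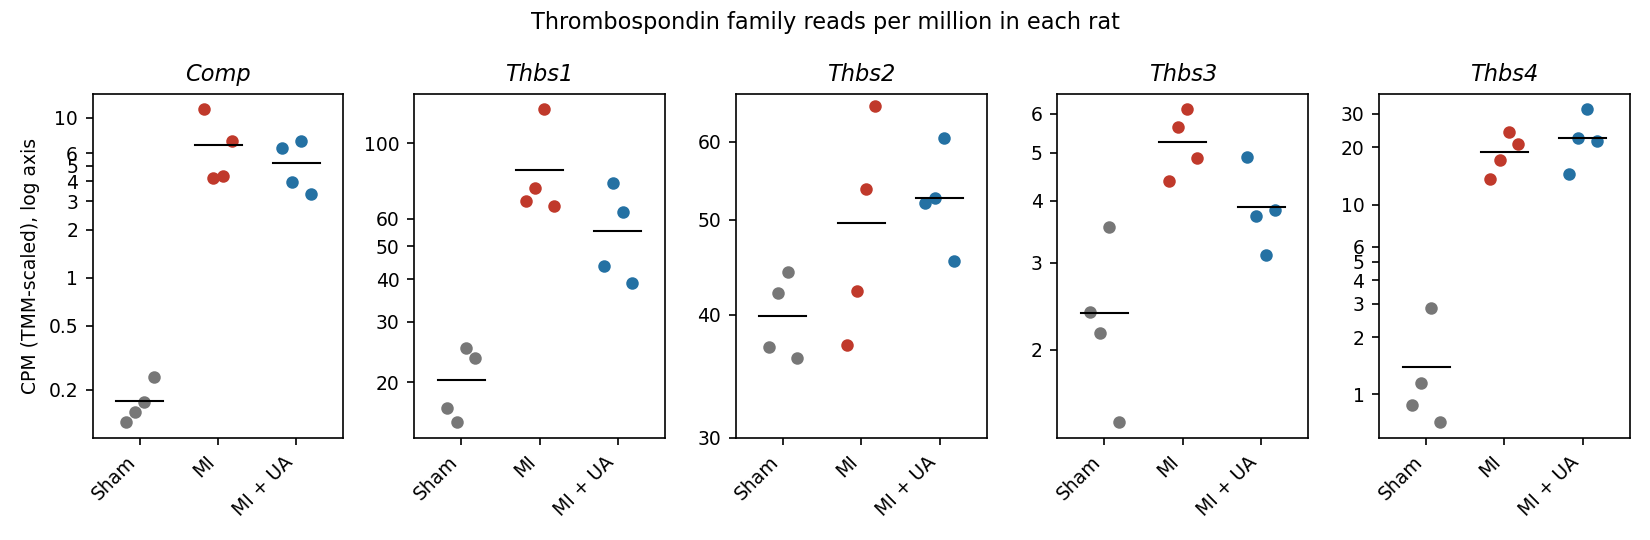
Each point is a rat, with 4 rats in each group, the vertical log axis gives CPM after TMM scaling and black bars are group means. Comp, Thbs1 and Thbs4 in all 8 infarcted rats sit above all Sham rats, while Thbs2 in MI overlaps Sham.

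Platelet genes were read beside Thbs1. Of 6 platelet and megakaryocyte markers tested, edgeR and DESeq2 called 0 in each of the 3 comparisons, with 2 at an unadjusted p under 0.05 in MI + UA versus Sham and 0 in the other two. Their summed level was 8.95 to 11.2 CPM in Sham, 7.74 to 9.58 in MI and 8.26 to 10.1 in MI + UA. Gp1bb was at 0 in all libraries and Ppbp in all Sham and MI libraries. In the RefSeq annotation of GRCr8, Thbs1 overlaps the locus LOC134486137. The study's methods describe strand-specific libraries, but the strand setting of the counting is not given in the sources used here. Reads of this pair may therefore not be separated.

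The infarct contrast ordered the members from Comp to Thbs2. Between MI and Sham the log2 fold changes were 5.25 for Comp (standard error, SE, 0.52), 3.84 for Thbs4 (SE 0.33), 2.04 for Thbs1 (SE 0.23), 1.16 for Thbs3 (SE 0.25) and 0.32 for Thbs2 (SE 0.14). The pentameric Thbs3 and the trimeric Thbs1 thus lay between the extremes of the other subgroup. This contrast chose the family, so the counts that follow are no support for a change in it. In edgeR's quasi-likelihood fit, 4 of the 5 members, all higher, lay under an adjusted p of 0.05, and 11.4% of all genes tested did so in either direction and 5.82% higher. The same 4 did not overlap between the groups, and neither did 15.7% of all genes in either direction and 8.12% higher. The median log2 fold change was 2.04 over the 5 members and 0.03 over all genes tested.

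The MI + UA rats did not enter the choice of the family, so MI + UA was tested against Sham. The Sham rats are those used in the choice, so the p-values of this test are not independent of it. Comp was higher by a log2 fold change of 4.82 (SE 0.54, edgeR adjusted p = 9.37e-06), Thbs4 by 4.06 (SE 0.32, edgeR adjusted p = 8.91e-08) and Thbs1 by 1.44 (SE 0.23, edgeR adjusted p = 0.000372). Those 3 of 5 members passed the test, all higher, against 9.44% of all genes in either direction and 5.16% higher. By log2 fold change among all 18182 genes tested, Comp ranked at position 29, Thbs4 at 66 and Thbs1 at 812. Each of the 3 was called in every fit that left out 1 rat, with log2 fold changes of 4.67 to 5.05 for Comp, 3.83 to 4.60 for Thbs4 and 1.25 to 1.58 for Thbs1. Comp reached the minimum of 10 counts only through the infarcted rats, since all Sham libraries together gave 5 reads.

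Thbs3 and Thbs2 did not pass in this comparison. For Thbs3 the log2 fold change was 0.77 (SE 0.25, edgeR adjusted p = 0.0612), with overlapping groups. Without Sham rat 32, its highest Sham value, it was 1.00 (edgeR adjusted p = 0.0263), and without Sham rat 38 it was 0.57 (edgeR adjusted p = 0.216). For Thbs2 it was 0.40 (SE 0.14, edgeR adjusted p = 0.0815), although no MI + UA rat overlapped Sham, and it was 0.46 without rat 66 (edgeR adjusted p = 0.0457). Over the fits without 1 rat, Thbs2 ran from 0.33 to 0.46, with an edgeR adjusted p of up to 0.217. In all, 4 of the 5 members, every one but Thbs3, did not overlap between MI + UA and Sham, against 14.3% of all genes in either direction and 7.83% higher.

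UA against vehicle after infarction moved no member past the threshold. In MI + UA versus MI, 0 of the 5 were called, as were 0% of all 18182 genes, and all 5 had an adjusted p of 1.00 in edgeR. Thbs1 had the lowest estimate, a log2 fold change of -0.60 (SE 0.21, 95% interval -1.03 to -0.17). It was the 1 member under 0.05 before adjustment in edgeR, at an unadjusted value of 0.00837, against 3.79% of all genes. Without MI rat 61, the highest, its log2 fold change was -0.33, and without MI + UA rat 58 it was -0.80. The groups overlapped for all 5 members, while 2.34% of all genes did not overlap (1.18% higher). DESeq2 also called 0 members and 0 genes in this comparison.

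For the other members the intervals give the uncertainty of each estimate, not the smallest difference that the adjusted test could call. Comp had a log2 fold change of -0.43 (SE 0.28, 95% interval -1.02 to 0.16), and without MI rat 36 it was -0.05. Thbs3 was at -0.39 (SE 0.22, 95% interval -0.85 to 0.07), Thbs4 at 0.23 (SE 0.21, 95% interval -0.22 to 0.67) and Thbs2 at 0.07 (SE 0.14, 95% interval -0.21 to 0.36). These intervals come from edgeR's standard errors for 1 gene at a time, and the MI rats that helped to choose the family are in this comparison. Without rat 66 the values were -0.24 for Comp, -0.46 for Thbs1, 0.14 for Thbs2, -0.37 for Thbs3 and 0.24 for Thbs4, and 0 members were called. Over all fits without 1 rat, Thbs4 ran from 0.03 to 0.40 and Thbs3 from -0.54 to -0.31.

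**Figure D2:**
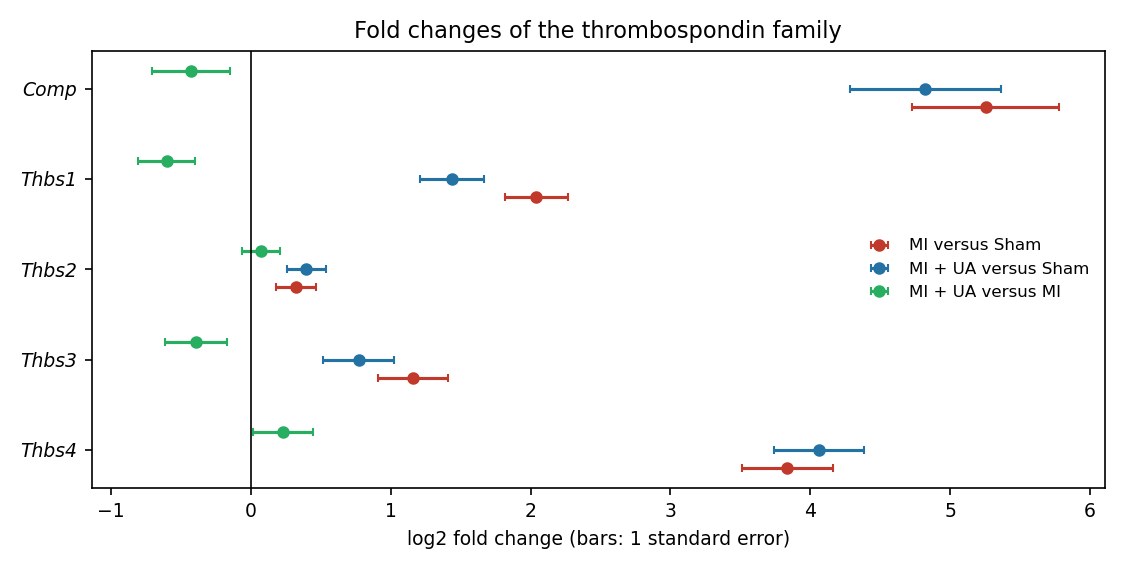
Log2 fold changes of the 5 members in the 3 comparisons, with bars of 1 standard error from edgeR's fit and 4 rats in each group. Comp and Thbs4 exceed 3.8 in both comparisons with Sham, and the values between MI + UA and MI lie from -0.60 to 0.23.

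The pentameric members together took a larger share of the family's reads in every infarcted heart than in any Sham heart. Summed over the 5 members, the family reached 64.1 ± 8.24 CPM (SD, n = 4) in Sham hearts, 164 ± 35.6 CPM in MI and 140 ± 26.2 CPM in MI + UA. Comp, Thbs3 and Thbs4 together took 6.02% ± 1.97 (SD, n = 4) of family reads in Sham, 19.3% ± 2.36 in MI and 22.8% ± 3.21 in MI + UA. The highest Sham rat was at 8.63% and the lowest infarcted rat at 16.2%, so the ranges were well apart. This split into subgroups was made after the values had been seen. The family was chosen for the rise of Comp in MI against Sham, so these shares are a description. The mean share of Thbs3 did not rise, at 3.67% in Sham, 3.26% in MI and 2.91% in MI + UA. Longer transcripts give more reads, so the shares describe reads and not molecules.

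Within the trimeric pair, Thbs2 was the larger part in Sham. It took 62.6% ± 5.39 (SD, n = 4) of family reads in Sham, 30.6% ± 6.50 in MI and 38.2% ± 4.19 in MI + UA. Thbs1 took 31.4% ± 5.49 in Sham, 50.2% ± 7.72 in MI and 39.1% ± 6.08 in MI + UA. Among the pentameric members, Thbs4 went from 2.09% ± 1.16 in Sham to 11.5% ± 1.11 in MI and 16.1% ± 3.65 in MI + UA. Comp took 0.265% ± 0.0795 in Sham, 4.45% ± 2.82 in MI and 3.77% ± 1.29 in MI + UA, and Thbs3 stayed between means of 2.91% and 3.67%.

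**Figure D3:**
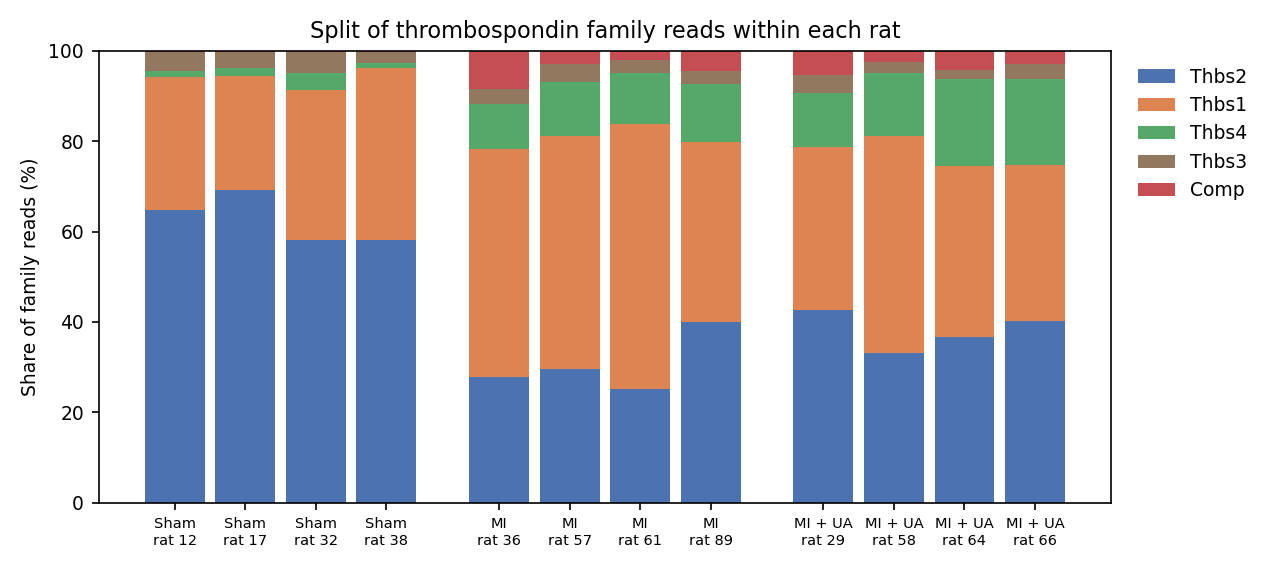
Stacked bars show, for each of the 12 rats, the percentage of thrombospondin family reads on each member. Thbs2 takes 58.2% to 69.2% in the Sham rats and 25.1% to 42.7% in the infarcted rats, and the Comp share is largest, at 8.43%, in MI rat 36.

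Ratios between members within a library do not depend on scaling, and 20 of them were tested with a two-sided exact permutation test. Between MI + UA and Sham, the log2 ratio did not overlap for 7 of the 10 pairs, each at an exact permutation p of 0.0286, the smallest that 4 rats against 4 allow (0.0817 after adjustment over the 20 tests). The Thbs1 over Thbs2 ratio went from -1.01 ± 0.37 (SD, n = 4) in Sham to 0.03 ± 0.36 in MI + UA on the log2 scale. The Comp over Thbs4 ratio was -2.44 ± 0.89 in Sham and -2.11 ± 0.67 in MI + UA (exact permutation p = 0.543, adjusted 0.679). That difference of 0.32 was 0.037 with 1 instead of 0.5 added to each count, and -0.047 without Sham rat 32, so its sign was not settled. Thbs1 over Thbs3 and Thbs2 over Thbs3 also overlapped. Between MI + UA and MI all 10 ratios overlapped, the smallest exact permutation p being 0.0571 for Thbs1 over Thbs4, with a difference of -0.81 (adjusted 0.143). No ratio reached an adjusted p under 0.05.

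Among the 8 infarcted rats the members did not rise and fall together in any pair that passed a test. Over 10 pairs, the strongest Pearson correlation of log2 CPM was that of Thbs2 and Thbs4 (r = 0.655, exact permutation p = 0.0754, adjusted 0.754; Spearman's rho = 0.667, exact permutation p = 0.0831, adjusted 0.831). Its r was 0.619 without the 2 rats farthest from the median of Thbs2, 0.821 within MI and 0.528 within MI + UA. Comp and Thbs4, which share the largest differences from Sham, had r = -0.345 (exact permutation p = 0.398, adjusted 0.959; Spearman's rho = -0.238, exact permutation p = 0.582, adjusted 0.935), and r = 0.126 without the 2 rats farthest from the median of Comp.

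Genes whose log2 CPM followed each member over the same 8 rats were searched among 10929 genes, as a description with no test, since all points share their libraries and 8 rats are few. Among the closest to Comp were Zbtb10 (r = 0.935), Tecpr1 (0.934), Scube1 (0.931) and Flvcr2 (0.930). Closest to Thbs4 were Mnda (0.944), Calcrl (0.930), Slc16a7 (0.920), Mrps18c (0.912) and Obi1 (0.911). For Thbs1 they were Pdlim2 (0.959), Cox4i2 (0.958) and Akna (0.958), for Thbs2 Lpcat1 (0.970), F2r (0.965) and Wipf1 (0.962), and for Thbs3 Ppp1r36 (0.953), Cd69 (0.947) and Arhgef40 (0.938). No gene was among the closest to more than 1 member.

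Comp is a cartilage protein by name, and cartilage genes were read beside it. Col2a1, the main collagen of hyaline cartilage, had 405 reads in MI rat 36, 3 in Sham rat 12, 1 in MI + UA rat 66 and 0 in the other 9 rats. Acan, the cartilage proteoglycan aggrecan, was at 9.21 CPM in rat 36 and between 0 and 2.00 CPM elsewhere, and Hapln1, which links aggrecan to hyaluronan, was at 2.41 CPM in rat 36 and at most 0.489 CPM elsewhere. Rat 36 was also the highest for Comp, at 11.3 CPM. Without it, the log2 fold change of Comp between MI and Sham was 4.87, and the 3 other MI rats, with Col2a1 at 0, had 4.23 to 7.17 CPM of Comp. The MI + UA rats, with at most 1 Col2a1 read, had 3.32 to 7.17 CPM.

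Genes of the cartilage list that were called against Sham were all higher, while those not called varied in sign. Chad, the collagen-binding protein chondroadherin, was at 0.866 to 1.26 CPM in Sham, 5.96 to 18.3 in MI and 9.50 to 14.2 in MI + UA. In MI + UA versus Sham, 3 of 10 cartilage genes tested rose and 0 fell in edgeR's test: Chad by 3.34 (adjusted p = 2.77e-06), Col11a1, a collagen of cartilage and scar, by 3.56 (adjusted p = 0.00111) and Sox9, the chondrogenic factor also used by activated cardiac fibroblasts, by 0.81 (adjusted p = 0.000504). Of those that did not pass, Col9a1, Ucma and Col11a2 had log2 fold changes of -1.34, -3.11 and -0.24, the first 2 on 14 reads each over all libraries. Col2a1 was at -1.84, while Acan, Cnmd and Hapln1 were at 3.74, 1.65 and 0.86. In MI versus Sham, 6 were called higher, and 3 without rat 36, an alternative added after the data had been seen. That count was also 3 without Sham rat 12 or Sham rat 38. Matn1 was at 0 in all Sham and MI + UA libraries, and the summed level of the 10 tested genes was 18.3 to 22.7 CPM in Sham, 40.8 to 108.4 in MI and 43.4 to 64.2 in MI + UA.

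**Figure D4:**
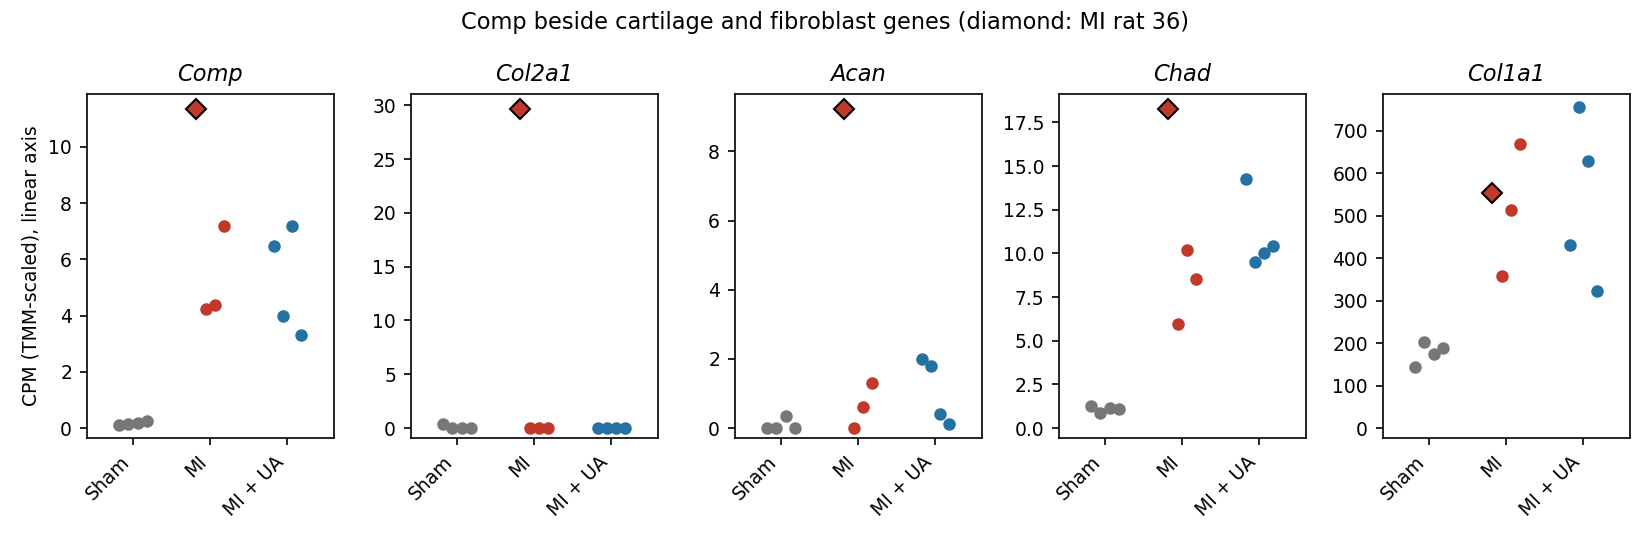
CPM of Comp, the cartilage genes Col2a1, Acan and Chad, and the fibroblast collagen Col1a1 in each of the 12 rats on linear axes, with a diamond for MI rat 36. Rat 36 is highest for the first 4 genes, at 29.6 CPM for Col2a1, while Comp in the other 7 infarcted rats stays at 3.32 CPM or more.

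Marker genes of several cell types differed between the same groups. Of 12 fibroblast markers, 8 rose and 0 fell in MI + UA versus Sham (edgeR, adjusted p under 0.05), and their summed level was 1198 to 1501 CPM in Sham, 2335 to 4037 in MI and 2397 to 4147 in MI + UA. Macrophage markers rose for 10 of 11 (7 without Sham rat 17, Sham rat 32 or MI + UA rat 64). Tendon markers rose for 7 of 10 (5 or 6 in every fit that left out a rat). Bone markers rose for 2 of 8 (Runx2 by 1.54 and Spp1 by 4.13), with 0 falling in any of these lists. Cardiomyocyte markers fell for 10 of 11 (6 without Sham rat 32, Sham rat 38 or MI + UA rat 58). Over all genes in this comparison, 5.16% were called higher and 4.27% lower. The part of these marker differences in the members' differences was not tested. Set against the mean log2 CPM of the fibroblast markers in the same rat, Comp was at -6.60 ± 0.21 (SD, n = 4) in Sham, -3.22 ± 0.70 in MI and -3.63 ± 0.52 in MI + UA. Thbs4 on this scale was at -4.29 ± 0.87, -1.67 ± 0.36 and -1.53 ± 0.37. Thbs1 was at -0.36 ± 0.40, 0.44 ± 0.53 and -0.23 ± 0.16, and Thbs3 at -3.44 ± 0.64, -3.47 ± 0.47 and -3.99 ± 0.63, while Thbs2 went from 0.64 ± 0.23 to -0.28 ± 0.26 and -0.26 ± 0.30. These differences were not tested, and within the list single markers differed widely, with log2 fold changes in MI + UA versus Sham from 0.26 for Dcn, which did not pass, to 2.71 for Postn.

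Of the other lists, endothelial markers gave 0 higher and 1 lower of 8 in MI + UA versus Sham, smooth muscle and pericyte markers 1 higher and 1 lower of 10, and skeletal muscle markers 1 higher and 1 lower of 7. Adipocyte markers gave 0 higher and 2 lower of 5, nerve and Schwann cell markers 4 higher and 0 lower of 7, mesothelial and epicardial markers 1 higher and 0 lower of 6, and atrial markers 1 higher and 0 lower of 5. Without some rats the nerve and Schwann cell count was lower, at 1 without Sham rat 38 and 2 without Sham rat 12 or MI + UA rat 58. Smooth muscle and pericyte markers gave 3 higher without MI + UA rat 66, and 0 lower without Sham rat 17, 32 or 38 or MI + UA rat 29 or 64.

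Partners of the family were read from 6 pathway lists, again in edgeR's test with p adjusted over all genes and against the 5.16% of genes higher and 4.27% lower in MI + UA versus Sham. These lists were chosen with earlier results of these data known, so their counts are a description. Most matrix proteins that bind thrombospondins were higher: 17 of 22 rose and 0 fell, with a median log2 fold change of 1.29 against 0.02 over all genes. Of these 17, 7 are also in the fibroblast or tendon marker lists (Col1a1, Col1a2, Col3a1, Fn1, Postn, Col12a1 and Col14a1), so the lists are not separate counts. Tnc (tenascin-C) rose by 3.67 (SE 0.91, adjusted p = 0.0123), Postn (periostin) by 2.71 (SE 0.40, adjusted p = 0.000186) and Col12a1, a fibril-associated collagen, by 2.28 (SE 0.37, adjusted p = 0.000467). Matn4, a matrilin, gave 1 read in all Sham libraries and 67 in MI + UA, a ratio of 38.8 (95% exact interval 6.73 to 1556, for counting error only and not the spread between rats). For Tnc, rat 58 alone was at 42.4 CPM and the other MI + UA rats at 1.86 to 6.90, with Sham at 0.577 to 1.68. Its log2 fold change was 1.80 to 4.09 over the fits without 1 rat.

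Most receptors did not pass the test. Of 21 tested, 3 rose and 1 fell, with a median of 0.18. Without any 1 of the Sham rats or without MI + UA rat 64 only 1 rose, and without MI + UA rat 66 there were 5. The leukocyte integrin genes Itgam and Itgb2 rose by 1.52 (SE 0.41, adjusted p = 0.0208) and 1.28 (SE 0.38, adjusted p = 0.0382), Lrp1, the endocytic receptor that clears Thbs1 and Thbs2, rose by 0.95 (SE 0.10, adjusted p = 5.61e-06), and the muscle laminin receptor subunit Itga7 fell by 0.56 (SE 0.09, adjusted p = 0.000513). Over the fits without 1 rat, the log2 fold change was 0.96 to 1.76 for Itgam and 0.66 to 1.57 for Itgb2. Itgam is also in the macrophage list. The Thbs1 receptor gene Cd47 had 107 ± 3.41 CPM (SD, n = 4) in Sham and 128 ± 14.7 in MI + UA (log2 fold change 0.25, adjusted p = 0.0883).

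Proteases that process thrombospondins gave 5 higher and 1 lower of 15 tested, and 3 higher without Sham rat 17, 32 or 38 or MI + UA rat 58. Without Sham rat 17 or MI + UA rat 66, 2 were lower. Those higher were Plau (1.58, adjusted p = 0.0384) and Plat (0.53, adjusted p = 0.0356), the plasminogen activators, and the metalloproteinases Mmp19 (1.27, adjusted p = 0.000879), Mmp14 (0.92, adjusted p = 0.0104) and Mmp2 (0.76, adjusted p = 0.000535). Adamts7, which cleaves Comp, had a log2 fold change of -0.52 (SE 0.13, adjusted p = 0.0118), from 25.3 ± 1.23 CPM (SD, n = 4) in Sham hearts to 17.7 ± 2.31 in MI + UA. Adamts12, its closest relative, was at 66.4 ± 8.74 and 50.4 ± 11.8 CPM (log2 fold change -0.40, adjusted p = 0.0661).

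The TGF-beta list, the growth factor that Thbs1 can release from its latent complex, gave 8 higher and 0 lower of 15. Without Sham rat 38 it gave 5, the calls of Tgfbr1, Tgfbr2 and Ltbp1 being lost. Ltbp2, a latent TGF-beta binding protein relative, rose by 4.48 (SE 0.19, adjusted p = 3.75e-12), Tgfb2 by 1.13 (adjusted p = 0.0017), Tgfb3 by 1.04 (adjusted p = 9.36e-06) and Ltbp3 by 0.76 (adjusted p = 0.000476). The Atf6 and chaperone list, to which Thbs4 is linked, gave 1 of 21 higher and 0 lower: Pdia3, a disulfide isomerase, by 0.32 (adjusted p = 0.0419), while Atf6 itself had 34.4 ± 1.94 CPM (SD, n = 4) in Sham hearts and 37.6 ± 3.59 in MI + UA (log2 fold change 0.12, adjusted p = 0.519). Of 12 angiogenesis and nitric oxide genes, the processes that Thbs1 restrains, 0 rose and 2 fell (1 rose without Sham rat 17 or MI + UA rat 66, 4 fell without MI + UA rat 66, and 1 fell without Sham rat 12, 17 or 38 or MI + UA rat 58 or 64). They were Kdr, the main VEGF receptor, with a log2 fold change of -0.52 (adjusted p = 0.00288) and Nos3, the endothelial nitric oxide synthase, with -0.37 (adjusted p = 0.0303). In MI + UA versus MI, edgeR and DESeq2 called 0 of the 105 genes of these lists, and 4 had an unadjusted p under 0.05 in edgeR. Among the genes named from the lists, those that lost their call in MI + UA versus Sham in some of the 8 edgeR fits without 1 rat, an alternative added after the data had been seen, were Itgam (called in 3 of 8), Itgb2, Plau, Plat and Pdia3 (2 of 8 each), Nos3 and Tgfbr2 (3 of 8 each), Tgfbr1 (4 of 8) and Ltbp1 (6 of 8).

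Between MI and Sham, where 5.82% of genes were called higher and 5.53% lower, there were 18 of 22 matrix ligands higher and 0 lower, 3 receptors higher and 1 lower, 5 proteases higher and 2 lower, 8 TGF-beta genes higher and 0 lower, 2 chaperone genes higher and 0 lower, and 0 angiogenesis genes higher and 3 lower.

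**Figure D5:**
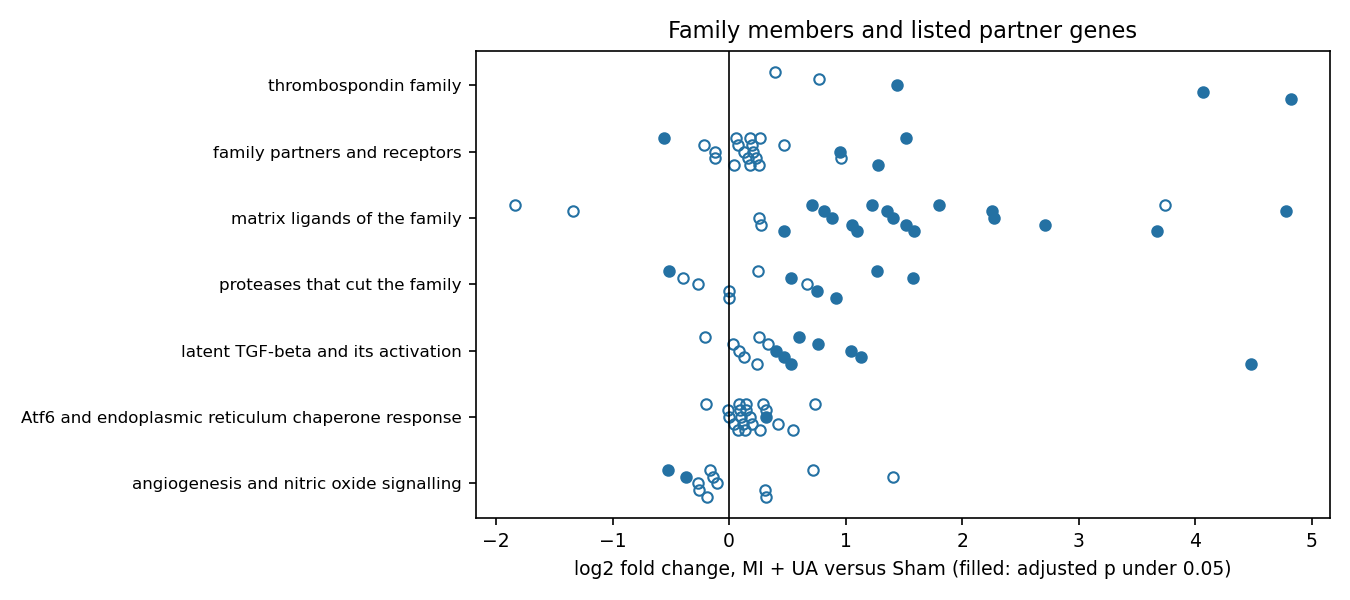
Each circle is a gene, placed along the axis by the log2 fold change of MI + UA over Sham and filled where edgeR's adjusted p was under 0.05, for the 5 members and 103 entries of the 6 lists (3 proteases at 0 in every Sham library, Mmp3, Mmp9 and Mmp13, are left out). Comp and Thbs4 lie among the farthest right of all genes shown, beside Matn4 (1 read in Sham) and Ltbp2. Mmp3, Mmp9 and Mmp13 had larger log2 fold changes than Comp, at 7.32, 5.26 and 6.21, but did not pass the test.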

How the data were processed

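The authors mapped paired reads of ribosomal RNA-depleted libraries to the mRatBN7.2 rat genome with STAR 2.6.1c and deposited htseq-count gene counts, unnormalized. The strand setting is not given in the sources used here, and the sample labels call the molecule polyA RNA. Summary lines, 51.7% to 57.1% of counted reads, were left out, leaving 6228706 to 19031695 reads on genes in each of 12 libraries. Genes with at least 10 counts were fitted with edgeR 4.0.16 (R 4.3.3; TMM, quasi-likelihood test, 3 groups in one fit) and p-values were Benjamini-Hochberg adjusted over 18182 genes at a threshold of 0.05. CPM values use TMM-scaled library sizes, log2 CPM a prior count of 1, and ratios between members 0.5 added to each count. The labels assign each rat to its group, and p-values measure the spread between rats.

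The members and the gene lists were chosen with earlier results of these data known. Named genes were the 5 members, up to 4 called genes per pathway list with the largest change in MI + UA versus Sham, every called gene where a count was 5 or fewer, and the genes closest to each member by Pearson correlation. A gene that this rule names is not reported here. Cd47, Adamts12, Atf6 and the marker genes described were added outside this rule, after their values were seen. The script was tested on simulated data. Alternatives were DESeq2 1.42.0, other scalings and filters, pairs of groups alone and leaving out each rat in turn. Transcript lengths were not used here, so shares and ratios between genes describe reads and not molecules.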

Additional observations from a re-analysis of the deposited data

How the results depend on the processing

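No paired analysis was possible because every group has its own rat numbers. Apart from ratios and correlations between members, 368 of 378 alternative values were scored as unchanged, among them 205 of 210 log2 fold changes of the members. Log2 fold changes were so scored if they kept their direction and, where tested, their side of the threshold, or moved by less than the spread between rats. The 70 log2 fold changes in MI versus Sham were judged by the spread between rats alone. Counts were scored as unchanged within a set factor of the main count. By that rule, 1468 genes called in MI versus Sham without MI rat 61 counted as unchanged from 2064. Without a filter beyond 1 count, Thbs2 in MI + UA versus Sham passed (log2 fold change 0.40, edgeR adjusted p = 0.0297), as it did with only the groups compared (0.39, edgeR adjusted p = 0.0215), and 3 genes, none a member, were called in MI + UA versus MI. Leaving out each rat in turn gave 0.33 to 0.46 for Thbs2 and 0.57 to 1.00 for Thbs3 in MI + UA versus Sham, and -0.048 (without MI rat 36) to 0.24 for Thbs2 in MI + UA versus MI, where the sign turned. Genes called in MI + UA versus MI then numbered 0 to 1 (1 without MI rat 36), in MI versus Sham 1468 to 1941, and in MI + UA versus Sham 1155 to 1895. Members called numbered 4 to 5 in MI versus Sham (5 without MI rat 36, when Thbs2 was added) and 3 to 4 in MI + UA versus Sham.

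Of the 10 correlations between members, 6 turned sign without some rat and 4 did not, at 0.457 to 0.779 for Thbs2 and Thbs4, 0.0955 to 0.615 for Thbs1 and Thbs3, 0.0573 to 0.392 for Thbs1 and Thbs4, and -0.739 to -0.00726 for Thbs3 and Thbs4. Over deviations from the group means, r was 0.0129 for Comp and Thbs2 and 0.00285 for Thbs2 and Thbs3, both with turned signs. Leaving out each rat gave the others -0.457 to 0.238 for Comp and Thbs1, -0.242 to 0.772 for Comp and Thbs2, -0.301 to 0.0763 for Comp and Thbs3, -0.713 to 0.088 for Comp and Thbs4, -0.034 to 0.178 for Thbs1 and Thbs2, and -0.301 to 0.144 for Thbs2 and Thbs3. The ratios could hardly pass their adjusted threshold under any setting, so only signs are given. The differences in log2 ratio that turned sign on leaving out a rat ran from -0.047 to 0.675 for Comp over Thbs4 in MI + UA versus Sham and, in MI + UA versus MI, from -0.16 to 0.483 for Comp over Thbs3, -0.125 to 0.626 for Comp over Thbs1 and -0.332 to 0.0629 for Thbs1 over Thbs3. Cartilage genes called higher in MI versus Sham numbered 3 to 6. The causes were not tested. The 5 reads of Comp in Sham limit the precision of its fold change, and the level of any member per transcript was not measured.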
